A study of Mus musculus with 12 samples.

Results

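The enzymes that build cholesterol and fatty acids were examined as 36 genes: 19 of cholesterol synthesis and its isoprenoid branch, here called sterol genes, and 17 of fatty acid synthesis, desaturation and entry into glycerolipids, here called lipogenic genes. They were chosen by name from the known pathways, with earlier results of these data already known. The study itself had reported cholesterol biosynthesis and fatty acid metabolism as lowered in its treated cells. The counts of the 36 genes were taken by Ensembl identifier from a table of 55487 genes. All 36 passed the filter on low counts and were among the 11314 protein-coding genes tested. RNA came from primary mesenchymal stromal cells (MSCs) of wild-type (WT) C57BL/6 mouse bone marrow, which the study flushed from the femurs of females aged 6 to 8 weeks and expanded as adherent cells. There were 3 groups of 4 samples: untreated control MSCs, MSCs given 50 µM A1 for 6 h, and MSCs given 50 µM A1 with 1 mg/mL ovalbumin (OVA, the egg white protein used as a model antigen) for 6 h. A1 is an Accum variant in which cholic acid, a bile acid, is joined to a nuclear localization peptide from hnRNPA1. All groups grew in medium with 10% fetal bovine serum, which carries lipids of its own, and none received OVA alone.

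Cholesterol is made from acetyl-CoA through mevalonate, isoprenoid diphosphates, squalene and lanosterol. Fatty acids are made from the same acetyl-CoA through malonyl-CoA and palmitate, which are then lengthened, desaturated and joined to glycerol. Transcription of both pathways is driven by the sterol regulatory element-binding proteins (SREBPs), which stay in the endoplasmic reticulum membrane while sterols are plentiful and are released to the nucleus when sterols run low. SREBP2 is best known for the sterol genes and SREBP1 for the lipogenic ones, with overlap between them. In stromal cells these enzymes supply membranes, lipid anchors of signaling proteins and stored fat.

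Each sample held 13702348 to 16881995 counts. Levels are given in CPM (reads of a gene per 1000000 counted, after TMM scaling) and differences as log2 fold changes from edgeR's quasi-likelihood test, with p-values adjusted by Benjamini-Hochberg over all tested genes. A gene was called when its adjusted p was under 0.05, and a differentially expressed gene (DEG) also moved by 0.5 or more on the log2 scale in either direction. Nothing in the labels says that the 4 samples of a group came from separate animals or cultures, so the p-values measure the spread between these samples, which may be technical. Col1a1, Col1a2, Pdgfra, Pdgfrb and Cxcl12 were expressed as in stromal cells, although with A1 Pdgfra was at 50.4% and Cxcl12 at 38.7% of control. Other MSC markers were low: Thy1 had 0 to 17 counts and failed the filter, Nt5e had 7 to 14 counts, and Eng was at 9.40 CPM in control. Of the 11 MSC markers tested, 5 were lower and 2 were higher with A1, where 31.1% of all tested genes were called lower and 31.7% higher. The 2 that were higher were Cd44, at 262% of control, and Itgb1, at 153%. The leukocyte markers Ptprc, Adgre1, Itgam and Fcgr1 had at most 4 counts in a sample, Lyz2 had 0 to 7, Csf1r 1 to 14 and Cd68 16 to 31. Cd14 had 120 to 173 counts and was a DEG that rose with A1, by a log2 fold change of 0.57. The 8 leukocyte markers, mostly Cd14, summed to 9.41 to 10.5 CPM in control and 11.98 to 14.7 CPM with A1, and the 5 endothelial markers to under 1 CPM in every sample. In bulk RNA, fewer expressing cells and less RNA per cell cannot be told apart.

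The sterol genes fell together with A1. Of the 19, 17 were lower than in control MSCs and all 17 were DEGs, 0 were higher, and Ebp and Ggps1 were not called. Across all tested genes, 31.1% were called lower with A1 and 11.6% were DEGs that fell. The median log2 fold change of the sterol genes was -0.95, against -0.0017 over all tested genes, and 8 of them had a log2 fold change of -1 or lower. The largest adjusted p among the 17 was that of Tm7sf2, at 6.0e-06 by edgeR's quasi-likelihood test. Summed over the 19 genes, the level was 3087, 3208, 3045 and 3080 CPM in the control samples and 1641, 1688, 1739 and 1693 CPM with A1. The A1 mean was thus 54.4% of the control mean, and the groups did not overlap. DESeq2, the tool used by the study, called the same number of sterol genes lower, 17.

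**Figure D1:**
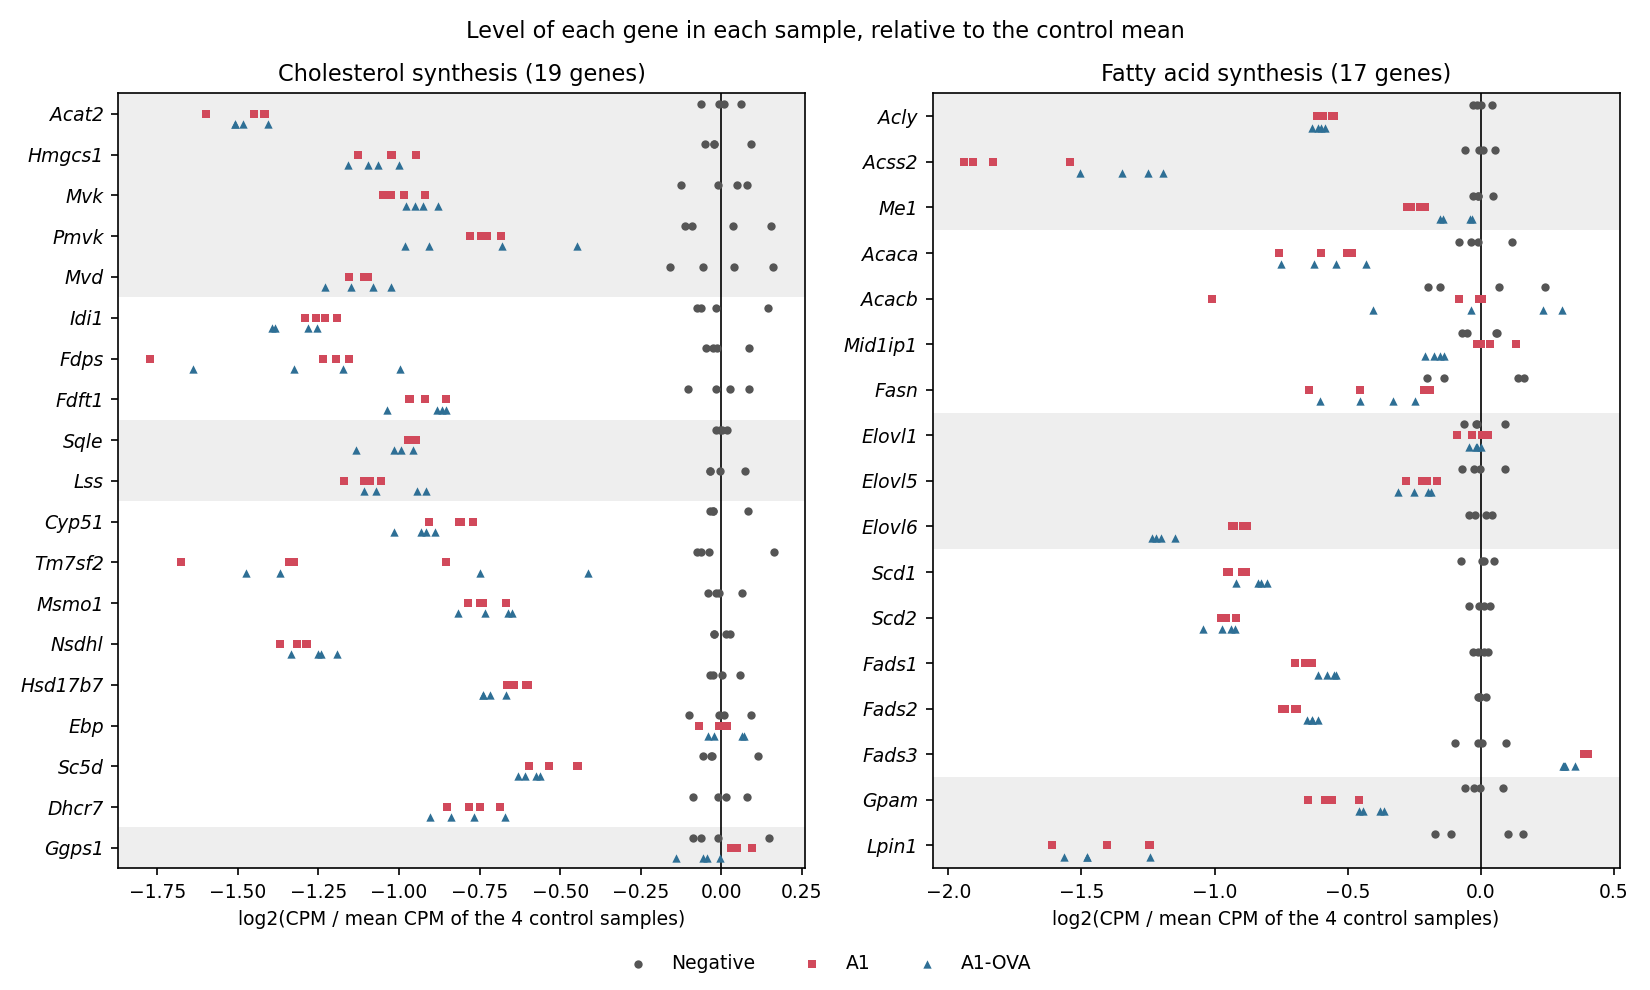
Each point is 1 sample, placed at the log2 ratio of its CPM to the mean CPM of the 4 control samples, for 19 sterol genes (left) and 17 lipogenic genes (right) in pathway order, with grey bands marking alternate steps. Control samples lie around 0, A1 and A1-OVA samples lie to the left for all sterol genes but Ebp and Ggps1, and Fads3 is the lipogenic gene whose treated samples all lie to the right.

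All 5 genes from acetoacetyl-CoA to isopentenyl diphosphate fell, with a median log2 fold change of -1.03. Acat2 (ENSMUSG00000023832, chr17:12942890-12960747), the thiolase that joins 2 molecules of acetyl-CoA, fell most among the sterol genes. It had 151, 146, 145 and 139 CPM in the control samples, 54.3, 48.0, 54.4 and 53.2 CPM with A1, and 51.1, 54.8, 52.0 and 51.0 CPM with A1 and OVA. Every treated sample was below every control sample, and its log2 fold change with A1 was -1.47 ± 0.0455 (SE; adjusted p = 6.7e-17, edgeR's quasi-likelihood test). Of its stretches of 100 bases, 28.9% also occur in transcripts of the neighbouring paralog Acat3, so part of its reads may have been left uncounted. Pmvk (ENSMUSG00000027952, chr3:89454541-89469013), phosphomevalonate kinase, changed least in this step. Its level was 19.6, 19.9, 23.6 and 21.8 CPM in the control samples, 12.7, 12.8, 12.4 and 13.2 CPM with A1, and 15.6, 11.3, 10.8 and 13.2 CPM with both agents. Here too every treated sample was below every control sample, with a log2 fold change of -0.73 ± 0.094 with A1 (adjusted p = 7.2e-07, edgeR's quasi-likelihood test). Between them lay Hmgcs1, which makes hydroxymethylglutaryl-CoA (590 ± 26.4 CPM in control and 289 ± 14.7 CPM with A1, SD, n = 4), Mvk, mevalonate kinase (42.1 ± 2.59 and 21.1 ± 0.850 CPM), and Mvd, mevalonate diphosphate decarboxylase (36.01 ± 3.42 and 16.6 ± 0.304 CPM).

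The 3 genes from isopentenyl diphosphate to squalene had the lowest median of any sterol step, -1.24. Fdps (ENSMUSG00000059743, chr3:89093588-89101959), farnesyl diphosphate synthase, had 12.2, 12.3, 12.0045 and 13.2 CPM in the control samples. With A1 it had 5.42, 5.27, 5.57 and 3.63 CPM, and with A1 and OVA 3.99, 5.51, 4.95 and 6.22 CPM. The treated samples all lay below the controls, at a log2 fold change with A1 of -1.32 ± 0.121 (adjusted p = 4.8e-09, edgeR's quasi-likelihood test). Its counted level is low for its place in the pathway, with 50 to 210 counts a sample, and 21.4% of its stretches of 100 bases recur in other genes, all of them predicted Gm models. Fdft1 (ENSMUSG00000021273, chr14:63145150-63179578), squalene synthase, changed least here, from 152, 145, 141 and 133 CPM to 73.0, 73.1, 79.0 and 75.4 CPM with A1 and 77.6, 79.0, 69.6 and 78.3 CPM with both agents. Its log2 fold change with A1 was -0.93 ± 0.048 (adjusted p = 3.6e-13, edgeR's quasi-likelihood test). Idi1, the isopentenyl diphosphate isomerase, went from 59.5 ± 4.29 to 25.2 ± 0.727 CPM. Predicted Gm models hold 15.8% of its stretches of 100 bases.

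Both enzymes that turn squalene into lanosterol fell. Lss (ENSMUSG00000033105, chr10:76531588-76557138), lanosterol synthase, closes the sterol rings. It had 148, 145, 145 and 156 CPM in the control samples, 68.9, 69.9, 66.1 and 71.6 CPM with A1, and 68.9, 70.9, 77.3 and 78.8 CPM with A1 and OVA. Its log2 fold change with A1 was -1.10 ± 0.046 (adjusted p = 9.2e-15, edgeR's quasi-likelihood test). Sqle, squalene epoxidase, was more abundant and fell from 440 ± 4.18 to 227 ± 1.73 CPM, a log2 fold change of -0.95 ± 0.037.

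Of the 8 genes from lanosterol to cholesterol, 7 fell, with a median of -0.75. Nsdhl (ENSMUSG00000031349, chrX:72918557-72958514), a dehydrogenase of the demethylation at carbon 4, fell most. It had 144, 139, 139 and 143 CPM in the control samples, 57.8, 54.7, 56.8 and 57.9 CPM with A1, and 56.0, 59.7, 59.3 and 61.9 CPM with both agents. Both treated groups lay far below control, and the log2 fold change with A1 was -1.31 ± 0.040 (adjusted p = 5.2e-17, edgeR's quasi-likelihood test). Ebp (ENSMUSG00000031168, chrX:8185329-8193512), the sterol isomerase that follows the demethylations, behaved otherwise. Its level was 34.7, 32.3, 30.3 and 32.7 CPM in the control samples, 32.3, 31.0, 32.8 and 32.9 CPM with A1, and 31.6, 33.9, 32.0 and 34.1 CPM with A1 and OVA. The 3 groups overlapped, and the log2 fold change with A1 was -0.01 with a 95% interval from -0.12 to 0.10 (adjusted p = 0.88, edgeR's quasi-likelihood test), so that a fall of the size seen for its neighbours in the pathway lies outside the interval.

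The other genes of this segment that fell had smaller log2 fold changes than Nsdhl. That of Tm7sf2, -1.27 ± 0.19, was too imprecise to set it below Nsdhl. Cyp51, the lanosterol demethylase, went from 561 ± 22.1 to 317 ± 12.3 CPM, Msmo1, the methyl oxidase that acts beside Nsdhl, from 353 ± 11.2 to 212 ± 7.31 CPM, and Hsd17b7, the ketoreductase of the same complex, from 93.6 ± 2.76 to 60.6 ± 1.33 CPM. Sc5d, the desaturase that acts after Ebp, went from 167 ± 9.16 to 117 ± 5.87 CPM and had the smallest called change of the sterol genes, -0.51 ± 0.044. Dhcr7, the reductase of 7-dehydrocholesterol, went from 42.1 ± 1.98 to 24.7 ± 1.17 CPM. Tm7sf2, a sterol reductase, had 5.80 ± 0.468 CPM in control and 2.41 ± 0.581 CPM with A1, on 25 to 105 counts a sample. Transcripts of Vps51 hold 7.92% of its stretches of 100 bases. Its partner in the same reaction, the lamin B receptor gene Lbr, is no member and had a log2 fold change with A1 of 0.10 ± 0.04 (adjusted p = 0.042, edgeR's quasi-likelihood test).

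Ggps1 (ENSMUSG00000021302, chr13:14050659-14063488) makes geranylgeranyl diphosphate, used as a lipid anchor of small GTPases and not for cholesterol. Its level was 68.0, 78.7, 66.8 and 70.5 CPM in the control samples, 72.4, 72.5, 75.7 and 73.3 CPM with A1, and 70.7, 68.3, 68.9 and 64.3 CPM with A1 and OVA. Each treated group overlapped control, while the samples with A1 and OVA all lay below those with A1 alone, a difference that was not called. The log2 fold change with A1 was 0.05, with a 95% interval from -0.05 to 0.15 (adjusted p = 0.40, edgeR's quasi-likelihood test). Control sample 2 was the highest, and without it Ggps1 was called higher with A1, at a log2 fold change of 0.10.

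Per kilobase of exon, the sterol genes spanned about 2 orders of magnitude in control MSCs. The length used was that of all annotated exons of a gene merged, whichever transcripts these cells make, and the order of genes depends on it. Hmgcs1 (128 ± 5.7 CPM per kb, SD, n = 4) and Cyp51 (127 ± 5.0 CPM per kb) were highest and lay within each other's spread, followed by Sqle (79.4 ± 0.75 CPM per kb). Msmo1 (57.4 ± 1.8 CPM per kb) and Acat2 (57.1 ± 2.0 CPM per kb) came next and could not be told apart either. At the other end were Fdps (2.95 ± 0.12 CPM per kb) and Tm7sf2 (1.32 ± 0.11 CPM per kb). Fdps, Tm7sf2 and Acat2 share sequence with other genes, as given above, and may be undercounted. By this measure Ebp, at 14.1 ± 0.77 CPM per kb, was at about the level of Lss, at 13.8 ± 0.50 CPM per kb, in control MSCs. Not divided by length, Ebp was at 32.5 CPM and Lss at 149 CPM, with merged exons of 2310 and 10787 bases. With A1, Ebp was at 14.0 ± 0.38 CPM per kb and Lss at 6.41 ± 0.21 CPM per kb.

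**Figure D2:**
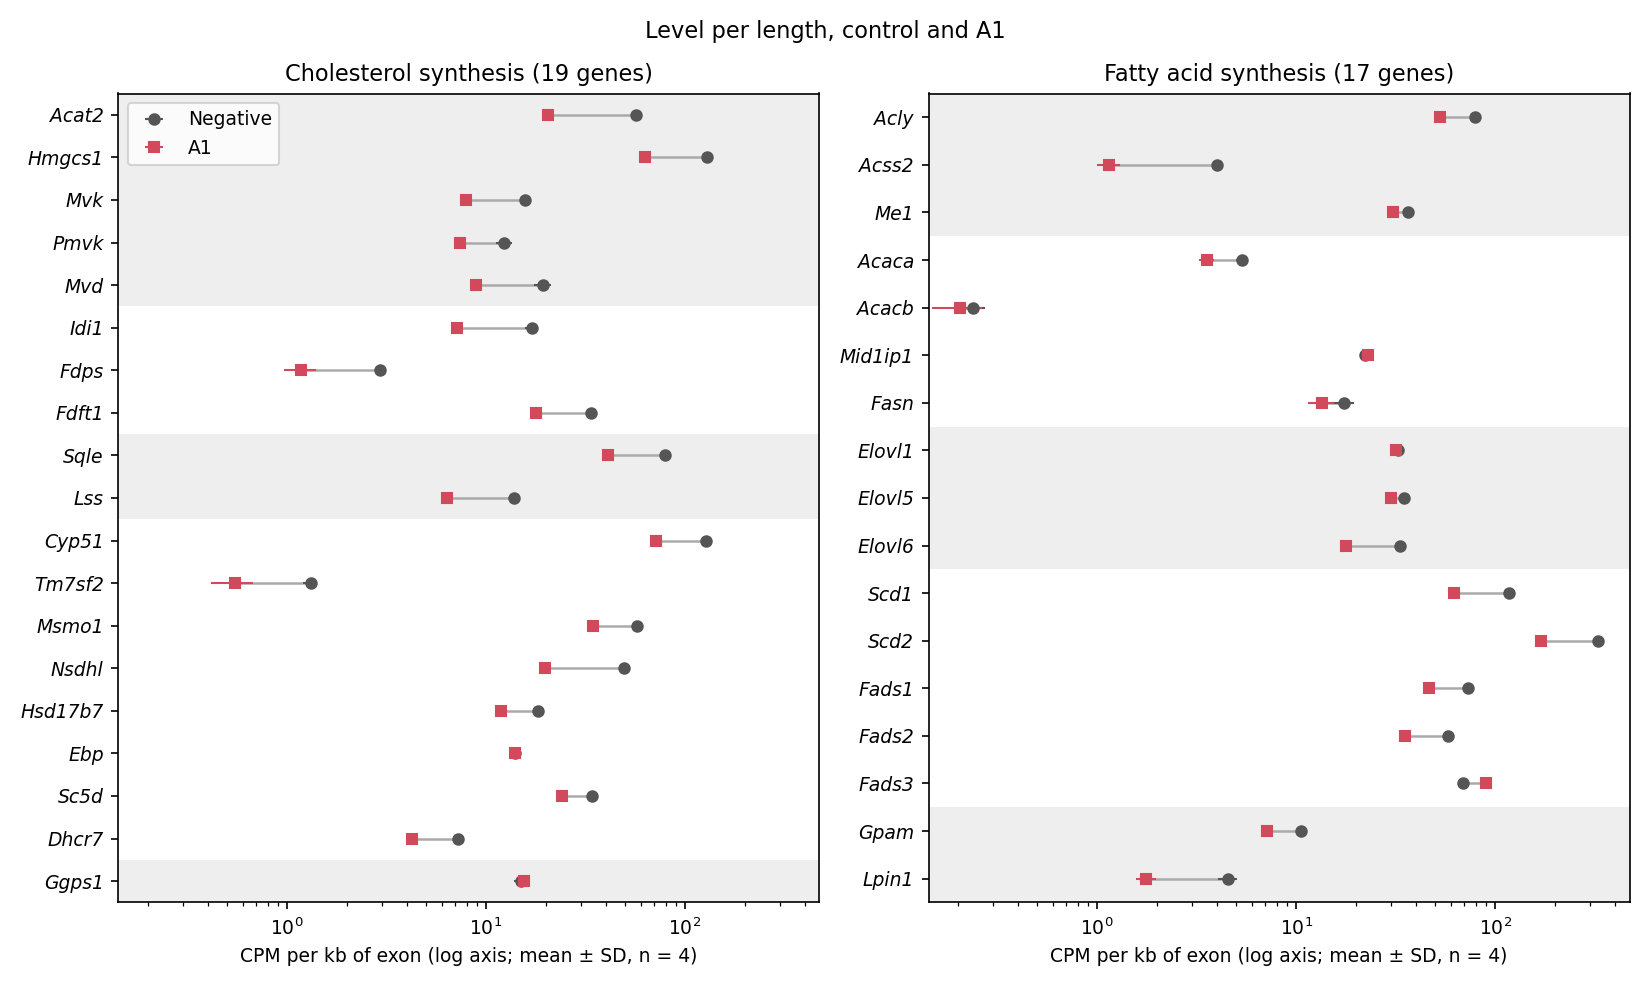
Mean CPM per kilobase of exon on a log axis in control MSCs (circles) and with A1 (squares) for each of the 36 genes, with SD over 4 samples, in pathway order. Hmgcs1, Cyp51 and Scd2 are the most abundant in control MSCs, the squares lie to the left of the circles for most genes, and the symbols of Ebp, Ggps1, Mid1ip1 and Elovl1 coincide.

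The 250 bases before the annotated start are shown for a sterol gene with an exact sterol regulatory element, a gene that fell strongly and both sterol genes that were not called. The sequences are from RefSeq (GRCm38.p6) and read 5′ to 3′ on the strand of the gene. Capitals mark the NF-Y box CCAAT on either strand, where the reverse strand reads ATTGG, and in Hmgcs1 also the sterol regulatory element.
Hmgcs1, chr13:119690101-119690350, plus strand: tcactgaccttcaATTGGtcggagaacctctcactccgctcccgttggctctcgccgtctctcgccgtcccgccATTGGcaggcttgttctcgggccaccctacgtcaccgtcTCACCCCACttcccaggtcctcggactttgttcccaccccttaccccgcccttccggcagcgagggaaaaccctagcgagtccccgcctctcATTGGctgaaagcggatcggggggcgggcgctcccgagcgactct
Nsdhl, chrX:72918271-72918520, plus strand: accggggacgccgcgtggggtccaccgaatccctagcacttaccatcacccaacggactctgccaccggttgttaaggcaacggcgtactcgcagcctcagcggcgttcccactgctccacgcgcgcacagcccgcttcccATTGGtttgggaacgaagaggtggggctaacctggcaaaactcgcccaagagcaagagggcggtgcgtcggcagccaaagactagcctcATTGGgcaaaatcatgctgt
Ebp, chrX:8193513-8193762, minus strand: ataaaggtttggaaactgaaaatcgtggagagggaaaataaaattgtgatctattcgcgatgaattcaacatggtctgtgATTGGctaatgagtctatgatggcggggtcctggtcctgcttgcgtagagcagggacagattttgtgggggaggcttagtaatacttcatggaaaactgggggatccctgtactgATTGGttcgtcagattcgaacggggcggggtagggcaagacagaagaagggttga
Ggps1, chr13:14063489-14063738, minus strand: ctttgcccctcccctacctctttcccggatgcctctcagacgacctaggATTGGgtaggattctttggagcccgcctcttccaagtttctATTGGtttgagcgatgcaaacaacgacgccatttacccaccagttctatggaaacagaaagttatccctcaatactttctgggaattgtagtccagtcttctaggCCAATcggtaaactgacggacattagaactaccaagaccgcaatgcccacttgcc

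Of the 19 sterol genes, 16 had a promoter entry, and for Fdps, Fdft1 and Sqle there was none. Within 250 bases before to 50 bases after the start, on both strands, CCAAT was found for 15 of the 16, the exception being Acat2. The share was 43.9% of the 8954 tested genes with an entry and 41.1% of all 27025 genes of the table. The letters TCACNCCAC of the sterol regulatory element occurred for 1 of the 16, Hmgcs1, as TCACCCCAC 137 bases before the start, against 1.35% of tested genes. With 1 mismatch allowed they occurred for 7 of the 16 and for 28.7% of tested genes. The Sp1 box GGGCGG was found for 14 of the 16 and for 70.7% of tested genes, and the E-box CACGTG for 3 of the 16 and 11.9%. Ebp and Ggps1, which were not called, held 2 and 3 CCAAT boxes in these bases, and Nsdhl, which fell to 40.2% of control, held 2 in the bases shown. CCAAT was thus found both for genes that fell and for genes that were not called. The 7 sterol genes with a 1-mismatch match to the sterol regulatory element, which were Acat2, Hmgcs1, Cyp51, Msmo1, Nsdhl, Hsd17b7 and Dhcr7, all fell, and of the other 9 with an entry 7 fell and Ebp and Ggps1 were not called.

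**Figure D3:**
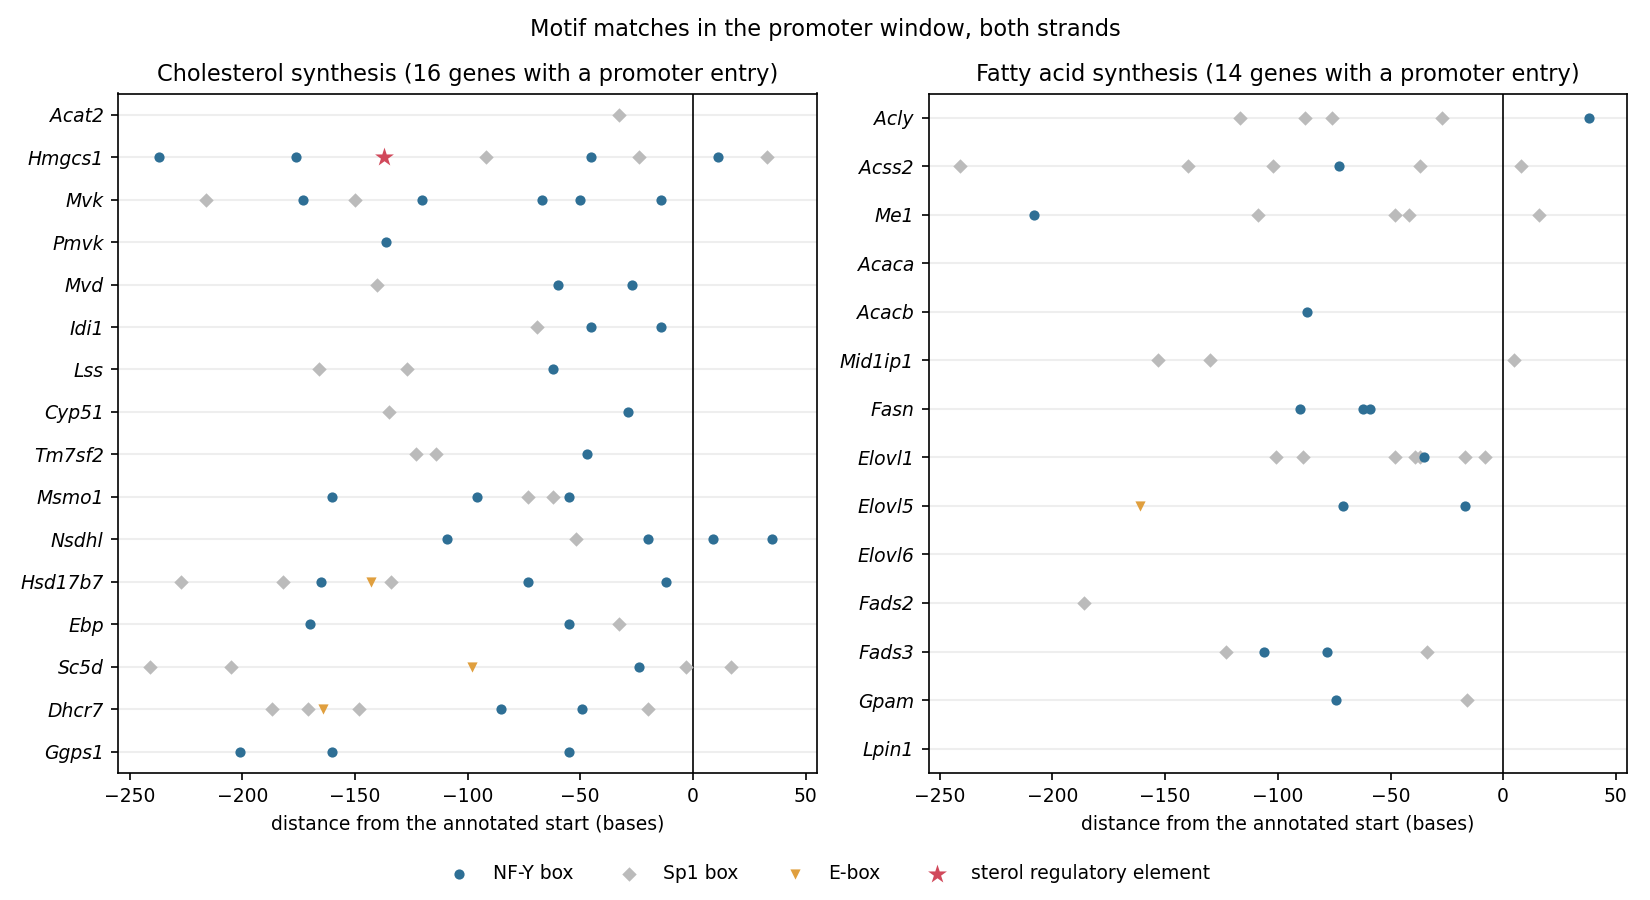
Position of the first base of each motif match relative to the annotated start (0) for the 16 sterol genes (left) and 14 lipogenic genes (right) with a promoter entry, both strands and all annotated starts of a gene together. NF-Y boxes (blue circles) occur in every sterol promoter but that of Acat2 and in 9 of the 14 lipogenic ones, and the red star is the sterol regulatory element of Hmgcs1.

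The lipogenic genes changed less and less evenly than the sterol genes. With A1, 13 of the 17 were lower, against 31.1% of all tested genes, and 10 were DEGs that fell, against 11.6%. Fads3 was higher, against 31.7% called higher among all tested genes, and Acacb, Mid1ip1 and Elovl1 were not called. It was not a DEG, of which 9.41% of tested genes rose. The median log2 fold change was -0.58, compared with -0.95 for the sterol genes, and 2 lipogenic genes fell to a log2 fold change of -1 or below. Summed over the 17 genes, the level was 4537, 4670, 4655 and 4687 CPM in the control samples and 2910, 2967, 2932 and 2988 CPM with A1, or 63.6% of control. Scd2 alone made up 1792 ± 42.3 CPM of the control sum. Markers of fat cells were present at a low level beside this. Fabp4 (63.2 CPM in control, 64.0 CPM with A1) made up most of the 5 adipocyte markers, whose sum was 64.2 to 70.6 CPM in control and 62.7 to 71.1 CPM with A1. Adipoq went from 2.204 to 0.670 CPM and Cidec from 1.54 to 0.893 CPM, while Cfd had 0 to 2 counts in a sample. The part of fat-forming cells in the lipogenic result was not tested.

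The 3 genes that supply acetyl-CoA and NADPH all fell, by very different amounts. Acss2 (ENSMUSG00000027605, chr2:155517948-155585724), which makes acetyl-CoA from acetate, had the largest change of the 36 genes. It had 38.8, 40.3, 42.0 and 40.7 CPM in the control samples, 10.8, 13.9, 11.4 and 10.5 CPM with A1, and 17.7, 14.2, 15.9 and 17.01 CPM with A1 and OVA. The 3 groups did not overlap, and with A1 it was at 28.8% of control, a log2 fold change of -1.80 ± 0.078 (adjusted p = 2.0e-14, edgeR's quasi-likelihood test). Acly, which splits citrate into acetyl-CoA, went from 417 ± 8.71 to 279 ± 5.97 CPM. Me1 (ENSMUSG00000032418, chr9:86581371-86695953), the malic enzyme that yields NADPH, had 139, 144, 137 and 139 CPM in the control samples, 117, 115, 121 and 119 CPM with A1, and 136, 137, 127 and 126 CPM with A1 and OVA. Its fall with A1 was small but outside the spread, at a log2 fold change of -0.24 ± 0.0385 (adjusted p = 1.2e-05, edgeR's quasi-likelihood test). Predicted Gm models hold 12.3% of the stretches of 100 bases of Me1.

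Of the 4 genes at malonyl-CoA and palmitate, 2 fell. Acaca (ENSMUSG00000020532, chr11:84129672-84401651), the acetyl-CoA carboxylase of the cytosol, had 86.1, 90.5, 98.8 and 88.8 CPM in the control samples, 60.1, 65.0, 53.8 and 64.3 CPM with A1, and 59.0, 54.1, 62.5 and 67.5 CPM with both agents. Its log2 fold change with A1 was -0.58 ± 0.065 (adjusted p = 8.6e-08, edgeR's quasi-likelihood test). Of its stretches of 100 bases, 23.7% recur in other genes, all of them predicted Gm models. Its paralog Acacb, of the mitochondrial surface, was near the limit of this depth at 2.30 ± 0.331 CPM in control and 1.98 ± 0.561 CPM with A1, on 15 to 45 counts a sample, and no change was detectable. Fasn, fatty acid synthase, had 165, 172, 209 and 212 CPM in the control samples and 139, 164, 121 and 166 CPM with A1. These groups overlapped by 1 sample on each side, and the log2 fold change was -0.36 ± 0.092 (adjusted p = 0.0017, edgeR's quasi-likelihood test), the largest adjusted p among the 13 lipogenic genes that fell. Mid1ip1 (ENSMUSG00000008035, chrX:10715013-10719690), an activator of the carboxylases, had 49.3, 45.7, 45.1 and 49.3 CPM in the control samples, 51.9, 46.9, 47.3 and 48.5 CPM with A1, and 43.0, 42.6, 41.0 and 42.0 CPM with A1 and OVA. Control and A1 overlapped, at a log2 fold change of 0.04 with a 95% interval from -0.06 to 0.14, whereas all samples with OVA lay below the other 8.

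Among the 3 elongases, Elovl6 and Elovl5 fell and Elovl1 was not called. Elovl6 (ENSMUSG00000041220, chr3:129532355-129638495), which lengthens palmitate to stearate, had 208, 220, 217 and 211 CPM in the control samples, 112, 115, 113 and 116 CPM with A1, and 91.8, 93.1, 91.0 and 96.5 CPM with A1 and OVA. The 3 groups were fully separate, and the log2 fold change with A1 was -0.91 ± 0.036 (adjusted p = 3.6e-15, edgeR's quasi-likelihood test). Elovl5, which acts on polyunsaturated fatty acids, went from 122 ± 5.83 to 105 ± 3.46 CPM. Elovl1 (ENSMUSG00000006390, chr4:118428093-118432953), which makes very long saturated chains, had 94.1, 84.6, 87.1 and 87.4 CPM in the control samples, 83.1, 90.1, 88.5 and 86.3 CPM with A1, and 85.6, 87.4, 87.1 and 88.4 CPM with both agents. All 3 groups overlapped, at a log2 fold change with A1 of -0.02 and a 95% interval from -0.11 to 0.06.

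The desaturases, which place double bonds in fatty acids, lie in 2 groups on chromosome 19. Scd2 (ENSMUSG00000025203, chr19:44293674-44306864), a stearoyl-CoA desaturase, was the most abundant of the 36 genes per length, at 328 ± 7.7 CPM per kb in control. It had 1738, 1837, 1785 and 1810 CPM in the control samples, 917, 911, 948 and 924 CPM with A1, and 914, 946, 871 and 934 CPM with A1 and OVA. The log2 fold change with A1 was -0.95 ± 0.036 (adjusted p = 2.1e-15, edgeR's quasi-likelihood test). Scd1, at 574 ± 20.4 CPM in control, changed by a similar -0.92 ± 0.038, and 2.58% of its stretches of 100 bases are shared with other genes, Scd3, Scd2 and Scd4 among them. Scd4 was at 1.15 CPM in control, and its interval for A1, -0.36 with a half-width of 0.629, allows both a fall like that of Scd1 and no change.

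Fads1, Fads2 and Fads3 lie within 155.3 kb and did not move together. Fads1, the delta-5 desaturase, had 356, 350, 346 and 359 CPM in the control samples and 218, 223, 228 and 226 CPM with A1, a log2 fold change of -0.66 ± 0.034. Fads2, the delta-6 desaturase, had 194, 190, 190 and 190 CPM in the control samples and 114, 115, 118 and 118 CPM with A1, a log2 fold change of -0.72 ± 0.033. Fads3 (ENSMUSG00000024664, chr19:10041569-10060110), which desaturates the sphingoid base of ceramides, was the single member to rise. It had 279, 243, 262 and 259 CPM in the control samples, 341, 343, 341 and 345 CPM with A1, and 324, 325, 333 and 323 CPM with A1 and OVA. Every treated sample was above every control sample, with a log2 fold change of 0.39 ± 0.038 with A1 (adjusted p = 1.1e-08, edgeR's quasi-likelihood test). Per kilobase, Fads3 (68.7 ± 3.8 CPM per kb) was close to Fads1 (73.3 ± 1.2 CPM per kb) in control MSCs, and with A1 stood at 90.3 ± 0.55 against 46.5 ± 0.90 CPM per kb. No stretch of 100 bases of Fads1, Fads2 or Fads3 occurred in transcripts of another gene.

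**Figure D4:**
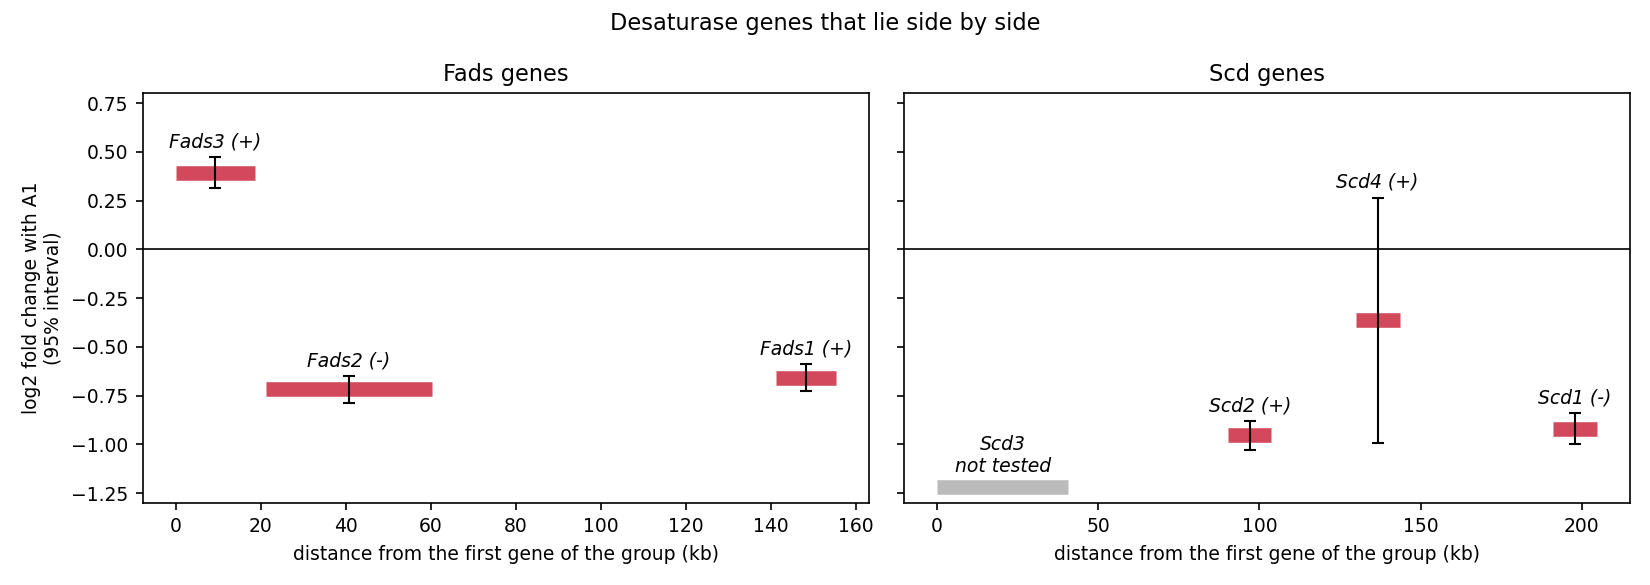
Log2 fold change with A1 (height of each bar, with its 95% interval) against position along chromosome 19 in kilobases from the first gene of the group, for the Fads genes (left) and Scd genes (right), with the strand in brackets. Fads3 lies above 0 and its neighbours Fads2 and Fads1 below, Scd2 and Scd1 lie near -0.95 and -0.92, Scd4 has a wide interval, and Scd3 was not tested and is drawn at the foot of the panel.

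The bases before the RefSeq start are shown for Acss2, which fell most, and for the neighbours Fads2 and Fads3, which moved in opposite directions, with capitals as above.
Acss2, chr2:155517793-155518042, plus strand: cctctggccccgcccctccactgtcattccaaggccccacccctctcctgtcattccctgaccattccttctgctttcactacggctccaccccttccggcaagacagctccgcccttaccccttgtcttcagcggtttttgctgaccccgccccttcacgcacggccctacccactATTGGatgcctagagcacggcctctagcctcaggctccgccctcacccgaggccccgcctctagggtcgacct
Fads2, chr19:10101504-10101753, minus strand: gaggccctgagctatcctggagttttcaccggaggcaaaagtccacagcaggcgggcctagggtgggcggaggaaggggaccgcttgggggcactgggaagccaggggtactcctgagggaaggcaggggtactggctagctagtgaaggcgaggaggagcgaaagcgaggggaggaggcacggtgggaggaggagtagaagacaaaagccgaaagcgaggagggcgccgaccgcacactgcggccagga
Fads3, chr19:10041298-10041547, plus strand: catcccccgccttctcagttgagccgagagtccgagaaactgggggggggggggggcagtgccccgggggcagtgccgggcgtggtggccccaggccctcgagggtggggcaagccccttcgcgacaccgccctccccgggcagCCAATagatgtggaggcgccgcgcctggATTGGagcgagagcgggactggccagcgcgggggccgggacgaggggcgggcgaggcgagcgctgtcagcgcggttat

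A promoter entry was held for 14 of the 17 lipogenic genes, and for Scd1, Scd2 and Fads1 there was none. CCAAT was found for 9 of the 14, against 43.9% of tested genes, and GGGCGG for 8 of the 14, against 70.7%. Fads3, which rose, held 2 CCAAT boxes in the bases shown, Acss2 held 1 and Fads2 held 0. For Acss2 and Fads2, however, the RefSeq start lies inside the gene as GENCODE, the source of the gene coordinates, places it. Part of the Acss2 bases shown and nearly all of the Fads2 ones are thus within the gene. The counts of Fads2 and Fads3 therefore do not compare like positions. The exact letters of the sterol regulatory element occurred for 0 of the 14. With 1 mismatch they occurred for 5 of the 14, against 28.7% of tested genes. Of these, Acly, Elovl5 and Gpam fell with A1, and Acacb and Mid1ip1 were not called. Of the others with an entry, Acss2, Me1, Acaca, Fasn, Elovl6, Fads2 and Lpin1 fell, Elovl1 was not called and Fads3 rose. Among the exact letters, different motifs overlapped in 1 member, Elovl1, where a CCAAT and a GGGCGG box share bases. With the mismatch allowed, a CCAAT box of the sterol gene Msmo1 also shared a base with a match to the sterol regulatory element.

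Both genes at the entry to glycerolipids fell. Lpin1 (ENSMUSG00000020593, chr12:16535669-16610966), a phosphatidate phosphatase, had 39.1, 40.7, 49.1 and 47.2 CPM in the control samples, 16.6, 18.6, 14.4 and 18.6 CPM with A1, and 15.8, 14.9, 15.8 and 18.6 CPM with A1 and OVA. Its log2 fold change with A1 was -1.37 ± 0.088 (adjusted p = 1.3e-11, edgeR's quasi-likelihood test). Its paralogs, which are no members, went their own ways: Lpin3 rose from 8.47 to 25.9 CPM, a log2 fold change of 1.61 ± 0.08, and Lpin2 fell from 99.8 to 85.6 CPM, by 0.22 on the log2 scale. Gpam, the mitochondrial glycerol-3-phosphate acyltransferase, went from 70.2 ± 3.001 to 47.6 ± 2.64 CPM, while its paralog Gpat4 rose by a log2 fold change of 0.19.

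A list of 52 further genes of these pathways held regulators, paralogs, side branches and next steps. Of the 46 that were tested, 16 were lower with A1, 17 were higher and 13 were not called, with a median log2 fold change of -0.01. These counts lay near the shares over all tested genes, 31.1% lower and 31.7% higher. Of the 46, 8 were DEGs that fell and 5 were DEGs that rose, against 11.6% and 9.41% of all tested genes. Among the DEGs that fell were Insig1 (-0.76) and Insig2 (-0.57), which hold SREBPs in the endoplasmic reticulum, Slc25a1 (-0.57), the mitochondrial citrate carrier, Idh1 (-1.59), the cytosolic isocitrate dehydrogenase that yields NADPH, the acyl-CoA synthetases Acsl1 (-0.62) and Acsl3 (-1.10), and Dgat1 (-0.60), which makes triglyceride. Idh1 had 313, 324, 307 and 299 CPM in the control samples and 104, 99.4, 105 and 104 CPM with A1. The 5 DEGs that rose were Soat1 (0.95), which esterifies cholesterol for storage, Lpin3 (1.61), Hacd1 (0.70), a dehydratase of fatty acid elongation, Elovl7 (0.63), an elongase, and Pdss1 (0.55), which builds the isoprenoid tail of ubiquinone. Soat1 had 121, 138, 137 and 130 CPM in the control samples and 245, 256, 260 and 256 CPM with A1. Of the SREBP genes, Srebf2, which encodes SREBP2, fell by 0.40 on the log2 scale, and Srebf1, which encodes SREBP1, rose by 0.18 ± 0.07 (adjusted p = 0.036, edgeR's quasi-likelihood test); both were named after their values were seen. Acat1, the mitochondrial paralog of Acat2, and Me2, the mitochondrial paralog of Me1, were not called, at -0.07 and 0.01. Idi2, Elovl2, Elovl3, Scd3 and Gpat2 were among those that did not pass the filter.

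With A1 and OVA together, the comparison with control used the same 4 control samples as that of A1 alone, so the results of both are not independent. Again 17 of the 19 sterol genes were lower and were DEGs, against 27.9% of all tested genes called lower and 8.79% that were DEGs, and 0 were higher, against 29.7%. Their median log2 fold change was -0.93. Of the 17 lipogenic genes, 14 were lower, 9 of them DEGs, with a median of -0.57, and Acacb and Elovl1 were not called. Fads3 was higher at 0.32 ± 0.038, short of a DEG, of which 8.92% of tested genes rose. The summed level was 1635, 1678, 1571 and 1683 CPM for the sterol genes, or 52.9% of control, and 2935, 2966, 2905 and 2977 CPM for the lipogenic genes, or 63.5%. Mid1ip1 fell by 0.17 on the log2 scale here. Me1, at -0.09 ± 0.038 (adjusted p = 0.045, edgeR's quasi-likelihood test), lost its call in 11 of 19 alternative analyses, DESeq2 among them.

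Adding OVA to A1 left 32 of these 36 genes not called, beside 9859 of the 11314 genes tested. Against A1 alone, 0 of the 19 sterol genes were called by edgeR's quasi-likelihood test and 0 by DESeq2, and 2 had an unadjusted p under 0.05 by either tool. Over all tested genes, 6.81% were called lower and 6.05% higher, shares at which few of 19 genes would be called. The 95% intervals of the difference lay between -0.22 and 0.20 for the sterol genes other than Fdps, from -0.23 to 0.36, and Tm7sf2, from -0.11 to 0.80. Of the lipogenic genes, 2 were higher and 2 were lower with OVA added, none by a log2 fold change of 0.5 or more. Acss2 was higher in all 4 samples with OVA than in all 4 without, by 0.48 ± 0.089 (adjusted p = 0.0011, edgeR's quasi-likelihood test), yet at 40.0% of control it stayed below the control samples. Me1 was also higher in all 4 samples, by 0.15 ± 0.039 (adjusted p = 0.012, edgeR's quasi-likelihood test). Elovl6 was lower by 0.29 on the log2 scale (adjusted p = 2.2e-05, edgeR's quasi-likelihood test) and Mid1ip1 by 0.21 (adjusted p = 0.0084, edgeR's quasi-likelihood test), each in 4 of 4 samples. The labels' medium for A1 with OVA also mentions insulin, in an incomplete phrase with no amount. Insulin is known to raise lipogenic transcription, and its part in these differences, if it was present, was not tested.

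**Figure D5:**
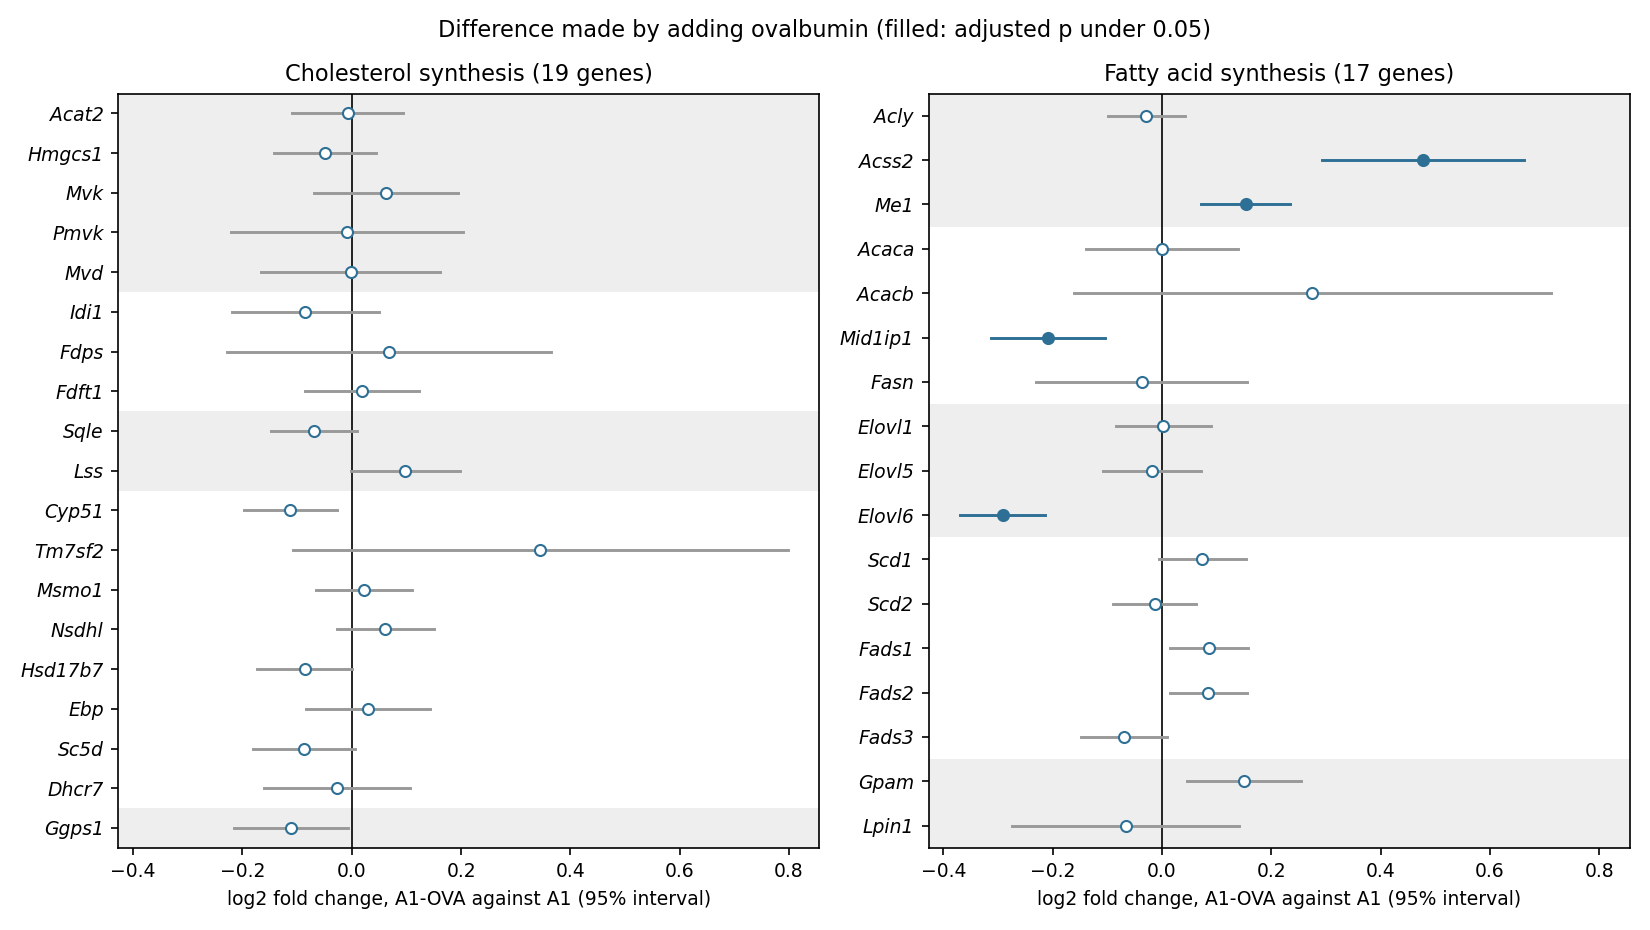
Log2 fold change of A1-OVA against A1 with its 95% interval for the 19 sterol genes (left) and 17 lipogenic genes (right), filled where the adjusted p was under 0.05. Filled symbols are Acss2 and Me1 to the right of 0 and Mid1ip1 and Elovl6 to the left, and no sterol gene is filled.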

How the data were processed

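RNA was sequenced from 12 samples, 4 in each of 3 groups taken from the sample titles. The authors prepared strand-specific polyA libraries, aligned reads to GRCm38 with STAR (version 2.7), counted them per gene with featureCounts (version 2.0) and deposited raw counts. Symbols, biotypes and exon lengths came from GENCODE M21, which holds 99.53% of the 55487 identifiers, and gene coordinates are those of GRCm38. Handling of reads with several hits is not given in the sources used here, so genes that share sequence with others may be undercounted. This was checked by the share of each gene's stretches of 100 bases that occur in transcripts of other genes on the same strand.

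Protein-coding genes that passed filterByExpr, 11314 in number, were scaled by TMM. All 12 samples entered a single model with the group as its term, tested by quasi-likelihood in edgeR (version 4.0.16, under R 4.3.3) with Benjamini-Hochberg adjustment. SE is the log2 fold change divided by the square root of F. At 13702348 to 16881995 counts a sample, 3 counts were the smallest signal considered. The code of the fit was run on simulated data with a single spread for all genes and far fewer changed genes than were called here. That run checks the code and not the calls in these data. DESeq2 (version 1.42.0) and other alternatives are given in the closing section. Members and lists were chosen with earlier results of these data known. Values in every sample were given for the genes of largest and, in steps of 3 or more genes, smallest absolute change with A1, and for any member that rose. Fasn, Fads1 and Fads2 were added after their values were seen. Members of the related list were named where they were DEGs or paralogs of a member. Promoters of 300 bases came from RefSeq (GRCm38.p6) and were matched by symbol. Replicate numbers were not used as pairs: samples of the same number in different groups had correlations of their deviations from -0.13 to 0.16 (mean 0.021, 12 pairs). Replicates varied more than counting error, with a chi-square per degree of freedom of 1.92 to 6.83, so no library was a copy of another. Some genes of these pathways are not reported here.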

Additional observations from a re-analysis of the deposited data

Results flagged for a closer look

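Among 108 sets of 4 values, 1 for each member in each group, 8 held a sample that stood apart from the other 3 by Dixon's criterion, which chance alone meets in about 1 of 20 sets. With A1, Fdps was at 3.63 CPM in sample 4, against 5.27 to 5.57 CPM in the others, and Acacb at 1.15 CPM in sample 3, against 2.18 to 2.31 CPM. With A1 and OVA, sample 3 was low for Fdft1, at 69.6 CPM against 77.6 to 79.0 CPM, and high for Fads3, at 333 CPM against 323 to 325 CPM. Among the control samples, sample 2 was high for Cyp51, at 594 CPM against 548 to 552 CPM, and for Sc5d, at 180.2 CPM against 160.0 to 163 CPM. Control sample 1 was high for Tm7sf2, at 6.50 CPM against 5.51 to 5.64 CPM, and for Fads2, at 193.7 CPM against 189.8 to 190.3 CPM.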

How the results depend on the processing

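Each log2 fold change of a member against control, and those of Acss2, Me1, Mid1ip1 and Elovl6 between the treatments, were recomputed under 19 alternatives: upper-quartile scaling, DESeq2, no filter, a minimum of 10 counts in each sample, genes of every biotype, fits of the compared groups alone, the replicate number as a block, and each of the 12 samples left out. Of 1444 such values, 1424 kept their direction and their side of the threshold, 11 lost a call, 1 gained one and 8 changed sign. The 11 were all Me1 with A1 and OVA, at -0.0979 with DESeq2 and with the 2 groups alone, -0.0967 without a filter, -0.0914 with the replicate block, and -0.0696 to -0.1007 in the 7 fits with a sample left out that lost the call, and the 1 was Ggps1 with A1. The changes of sign were in genes that were not called: Ebp with A1 (-0.042 to 0.0223 with a sample left out), Ebp with A1 and OVA (-0.003 with upper-quartile scaling and -0.0123 to 0.0522 with a sample left out), Elovl1 (-0.0418 to 0.0108 with A1 and -0.0393 to 0.0133 with both agents) and Acacb with A1 and OVA (-0.029 to 0.1798). The number of sterol genes called lower was 17 in every alternative for both treatments, and that of lipogenic genes 13 with A1 and 13 or 14 with both agents. The median of the sterol genes with A1 was -0.9617 with genes of every biotype, -0.9836 with upper-quartile scaling, which moved the median of all genes to -0.031, and -0.9636 to -0.9479 with a sample left out. The letters of the sterol regulatory element were found for 7 sterol and 5 lipogenic genes with 1 mismatch, against 1 and 0 without. With the replicate block, 7134 genes were called with A1 (7098 without), 6580 with both agents (6518) and 1488 between the treatments (1455). The count between the treatments ranged from 971 to 1619 with a sample left out. The replicate block left 17 sterol genes lower for both treatments and 13 lipogenic genes lower for both. Low counts limit Acacb, Tm7sf2 and Fdps. There was no group with OVA alone, and the replicate numbers may not stand for separate animals.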
